A study of Homo sapiens with 6 samples.

Results

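The ERBB receptors are receptor tyrosine kinases of the cell surface, and the EGF-like ligands are the growth factors that bind them. The 10 genes of the set were the receptors EGFR, ERBB2, ERBB3 and ERBB4 and the ligands EREG (epiregulin), AREG (amphiregulin), HBEGF (heparin-binding EGF-like growth factor), TGFA (transforming growth factor alpha), BTC (betacellulin) and EPGN (epigen). The rule picks them by name and uses no measured value, but the set was put together with earlier results of these data known. Probe sets were taken where the array's annotation gave exactly 1 symbol and that symbol was one of the 10. This rule found 32 probe sets for 8 of the genes, out of 19775 genes on the array, and none for AREG and EPGN, which have no value here.

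RNA of DLD-1, an established human colon carcinoma cell line, was measured on 6 Affymetrix arrays, 1 per sample. Of these, 3 were of the subclone labelled DLD-1Δα-Cat and 3 of that labelled DLD-1α-Cat. The cells had been embedded in type I collagen at 1 mg/ml for 96 h and were untreated. Nothing in the labels explains the name Δα-Cat, nor how many clones each name covers, nor whether a subclone was grown in separate cultures for its 3 arrays. The p-values thus reflect only the spread from sample to sample, and that spread may be technical. Their number also limits the precision of each value. Whether a difference belongs to the α-catenin state or to the individual subclone cannot be told apart.

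Ligands of this family are made as membrane-anchored precursors and are released by proteases of the ADAM family. A bound ligand brings receptors together in pairs, and the paired receptors phosphorylate each other and recruit adaptors that start the RAS-ERK and PI3K-AKT cascades. ERBB2 has no known soluble ligand of its own and works as a partner of the others, while ERBB3 has a weak kinase and signals through its partners. In the colon the pathway drives growth of the epithelium and is a target of therapeutic antibodies in colorectal cancer.

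The upstream sequences of EREG and BTC are shown because the only probe set that passed the test belongs to EREG, while BTC, a ligand of the same gene cluster, had differences of the opposite sign. In the RefSeq order on chromosome 4 the cluster runs EPGN, EREG, AREG, 2 long noncoding RNA genes without a value here, and BTC. The windows hold the 250 bases before the annotated start in RefSeq (GRCh38.p14), written 5′ to 3′ on the strand of the gene. EREG lies on the plus strand, at chr4:74364895-74365144, and BTC on the minus strand, at chr4:74794524-74794773. Capitals mark matches, on either strand, to 5 core promoter or signal-response motifs: the letters TATAAA for the box bound by the general transcription machinery, CCAAT for the binding motif of the factor NF-Y, GGGCGG for that of the SP1 family, TGACTCA for that of AP-1 and TGACGTCA for that of the CREB family. None of the marked matches overlap.
EREG: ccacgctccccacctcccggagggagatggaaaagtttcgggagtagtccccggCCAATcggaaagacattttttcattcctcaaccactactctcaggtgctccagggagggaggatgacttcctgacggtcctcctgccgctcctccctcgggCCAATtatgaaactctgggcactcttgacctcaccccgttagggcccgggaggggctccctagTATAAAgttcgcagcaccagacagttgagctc
BTC: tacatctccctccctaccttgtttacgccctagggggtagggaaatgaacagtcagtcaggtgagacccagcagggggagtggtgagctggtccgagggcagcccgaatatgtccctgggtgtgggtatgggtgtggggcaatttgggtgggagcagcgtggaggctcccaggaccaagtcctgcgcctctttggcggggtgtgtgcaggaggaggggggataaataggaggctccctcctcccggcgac

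The EREG window held 1 match to TATAAA, starting 32 bases before the annotated start, and 2 matches to the NF-Y motif. The BTC window held no exact match to the letters of any of the 5 motifs. Variants of these letters were not searched for in either window. Among 35116 RefSeq windows of the same length, 10.7% held the first motif, 32% that of NF-Y, 42.6% that of the SP1 family, 4.2% that of AP-1 and 1.65% that of the CREB family. Of 11 such windows of genes of the set, 4 held the first motif and 3 that of NF-Y. The windows of EPGN and AREG each held TATAAA, starting 29 bases before the annotated start, so this match was not particular to EREG in the cluster. A match describes the letters only, and the arrays did not measure binding or promoter activity.

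Values are log2 intensities after the authors' RMA (robust multi-array average), and a difference is the mean of DLD-1Δα-Cat less that of DLD-1α-Cat on that scale, so a negative value means lower in DLD-1Δα-Cat. Probe sets whose mean over the 6 arrays lay under 6.12, the median of all probe sets, are called dim, since low values cannot be told from background. CTNNA1, which encodes αE-catenin, stood between 11.01 and 11.38 in DLD-1Δα-Cat against between 12.73 and 12.79 in DLD-1α-Cat. Of 12 colon epithelial markers 10 lay above the median of all genes, EPCAM and KRT18 among them. Of the 12, 2 (16.7%) passed limma's test described below, against 5.52% of all genes. KRT20, a keratin of differentiated colon epithelium, was higher in DLD-1Δα-Cat by 4.89 on the log2 scale (adjusted p = 1.49e-05 by limma), and CDX1, an intestinal transcription factor, was lower by a difference of -1.09 (adjusted p = 0.00117 by limma). The part of these epithelial differences in the results was not tested. Of the measured 11 fibroblast, 10 endothelial and 10 leukocyte markers, 0 lay above the median of all genes. The log2 ratio of the 3′ over the 5′ β-actin control probe sets is a sign of RNA quality. It was 5.20 ± 0.159 in DLD-1Δα-Cat against 4.69 ± 0.291 in DLD-1α-Cat (SD, n = 3 each), and the groups did not overlap. The same ratio for the GAPDH control probe sets was 0.749 ± 0.0670 against 0.656 ± 0.144 (SD, n = 3 each), and the groups overlapped.

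With each gene represented by its brightest probe set, 0 of the 8 measured members passed limma's moderated test at an adjusted p of 0.05, against 5.52% of all genes (3.84% higher and 1.67% lower). At an unadjusted p of 0.05, 2 members passed, EREG and BTC, against 20.8% of all genes. Differences ran from -0.45 (EREG) to 0.39 (BTC), with a median of 0.065 beside -0.030 over all genes. The subclones' arrays were fully separated for 3 members, EREG on the lower side and TGFA and BTC on the higher, against 27.2% of all genes (13.1% lower and 14.1% higher).

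**Figure D1:**
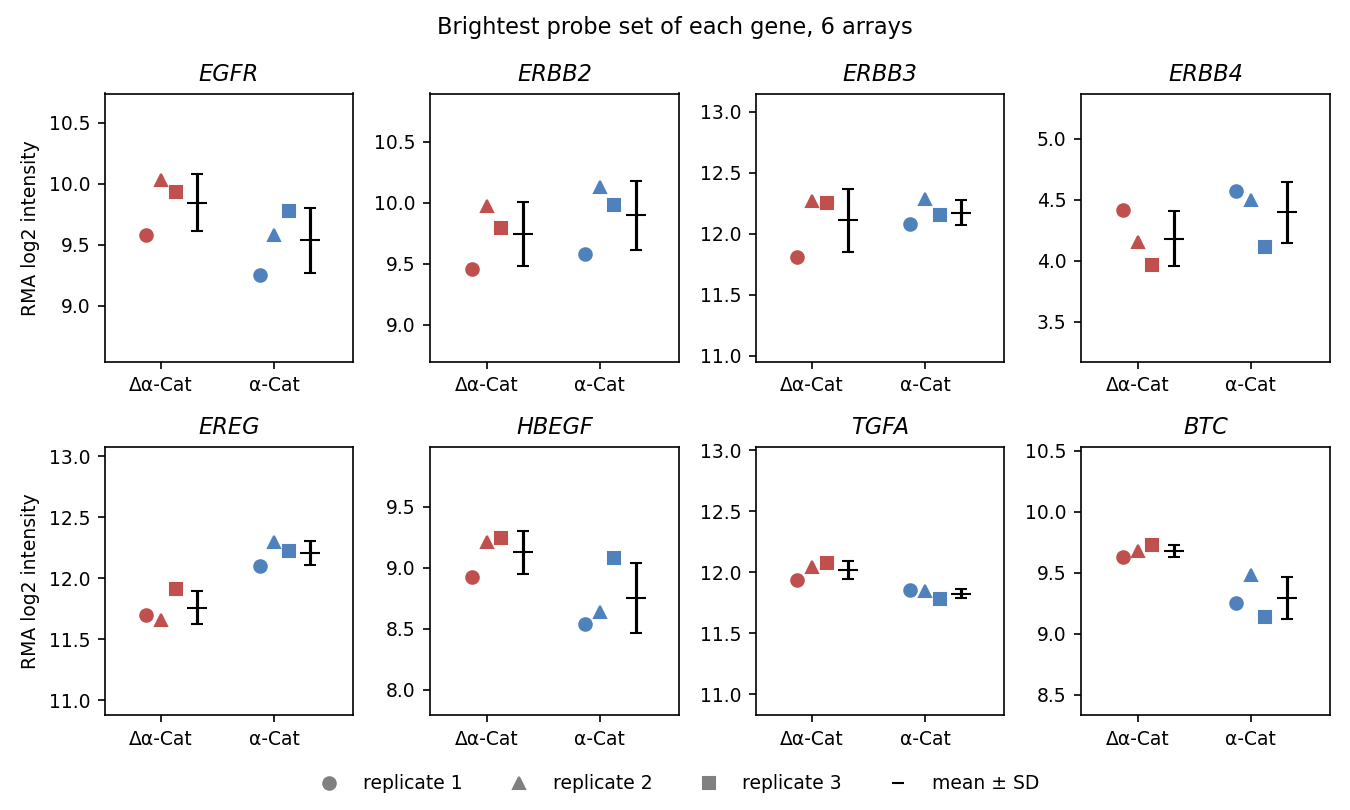
RMA log2 intensity (vertical axis, the same span in every panel) of the brightest probe set of each measured gene, by subclone. Symbols are single arrays (circle, triangle and square for replicates 1, 2 and 3) and the black bars are the mean ± SD of 3 arrays; the subclones are separated for EREG, TGFA and BTC and overlap for the other 5 genes.

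In a second fit, over all 54613 probe sets, 1 of the 32 member probe sets passed, against 2.45% of all probe sets. It was 1569583_at of EREG, which was lower in DLD-1Δα-Cat, against 0.729% of all probe sets called lower. At an unadjusted p of 0.05, 3 member probe sets passed, both of EREG and 1 of BTC, against 15.9%. The subclones' arrays were fully separated for 5 of the 32, against 22.1%: both of EREG and 1 each of EGFR, TGFA and BTC. By role, that was 1 of 21 receptor probe sets and 4 of 11 ligand probe sets. Dim probe sets made up 16 of the 32: 5 of EGFR, 2 of ERBB2, 3 of ERBB3, 4 of ERBB4 and 2 of HBEGF. The separated EGFR probe set was dim, and EREG gave 2 of the 4 separated ligand probe sets. The counts by role thus do not compare receptors and ligands at like signal levels.

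**Figure D2:**
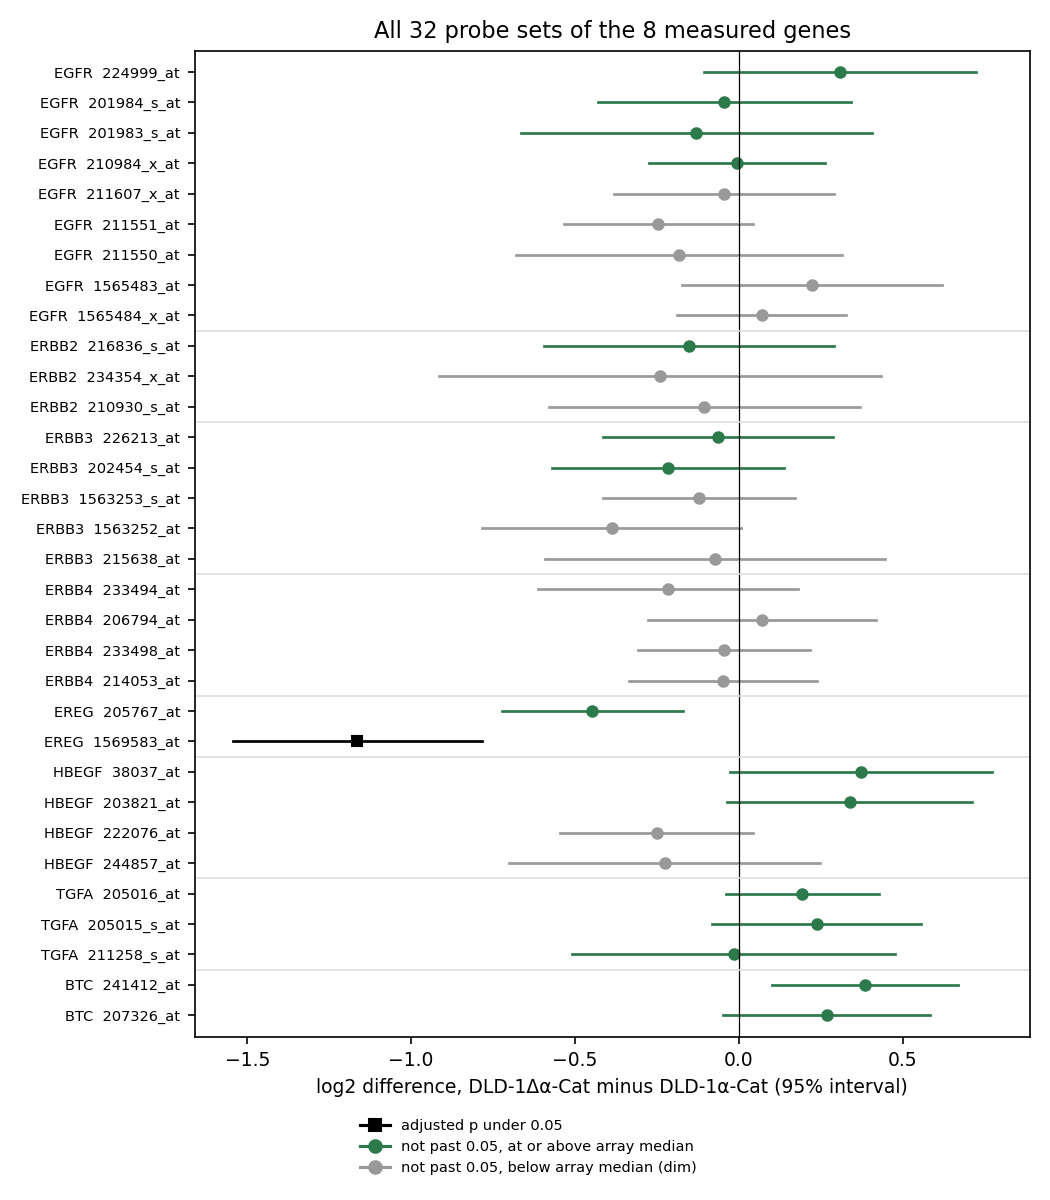
Log2 difference (horizontal axis) with its 95% interval for each of the 32 probe sets, in the order of the genes and, within a gene, from bright to dim. The black square is EREG 1569583_at at -1.16, the 1 probe set past the threshold; green circles lie at or above the array median and grey circles are dim.

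Among the receptors, EGFR, the receptor of EREG, AREG, HBEGF, TGFA, BTC and EPGN, had the most probe sets. Its brightest, 224999_at, read 9.58, 10.03 and 9.93 in DLD-1Δα-Cat against 9.25, 9.58 and 9.78 in DLD-1α-Cat, in the order of the replicate numbers. The groups overlapped, and replicate 1 was the lowest array of each. The difference was 0.31 (SE 0.173, 95% interval -0.097 to 0.71, adjusted p = 0.357 by limma). The next 3 probe sets in brightness, 201984_s_at, 201983_s_at and 210984_x_at, stood at -0.045, -0.13 and -0.0065, so the positive difference of the brightest was not shared by them. The 5 dim EGFR probe sets lay between -0.25 and 0.22. One of these, 211551_at, was lower in every DLD-1Δα-Cat array (5.61 to 5.65) than in any DLD-1α-Cat array (5.66 to 6.02), with an adjusted p of 0.390 in limma's fit.

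ERBB2, the partner receptor, and ERBB3, which needs a partner to signal, gave small differences below 0. For ERBB2 the probe set 216836_s_at read 9.46, 9.97 and 9.80 in DLD-1Δα-Cat against 9.58, 10.13 and 9.98 in DLD-1α-Cat. The values overlapped, and the difference was -0.15 (95% interval -0.59 to 0.28, adjusted p = 0.669 by limma). The other ERBB2 probe sets were dim and stood at -0.24 and -0.11. For ERBB3, 226213_at read 11.81, 12.27 and 12.25 against 12.08, 12.29 and 12.16, and replicate 1 of DLD-1Δα-Cat was the lowest array. The difference was -0.063 (95% interval -0.40 to 0.28, adjusted p = 0.830 by limma). A further ERBB3 probe set well within the bright range, 202454_s_at, stood at -0.22 (adjusted p = 0.534 by limma over probe sets). All 5 ERBB3 probe sets and all 3 of ERBB2 lay below 0, and none passed. Changes within these intervals are not distinguished from none.

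ERBB4, a receptor for neuregulins and for some EGF-like ligands, was dim with each of its 4 probe sets. Over the 24 values they ran from 3.08 to 4.57, so the arrays gave no level of ERBB4 that can be told from background in either subclone. The differences of the 4 lay between -0.22 and 0.070, with adjusted p from 0.579 to 0.880 in limma's fit over probe sets.

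EREG, a ligand of EGFR and ERBB4 that colorectal cancer cells often make, gave the clearest difference of the set, and on a single probe set. This one, 1569583_at, read 8.17, 7.96 and 7.95 in DLD-1Δα-Cat against 8.94, 9.51 and 9.12 in DLD-1α-Cat. Every DLD-1Δα-Cat array lay below every DLD-1α-Cat array, and replicate 2 was the highest of the latter. The means were 8.02 ± 0.124 and 9.19 ± 0.288 (SD, n = 3 each), a difference of -1.16 (SE 0.163, 95% interval -1.54 to -0.78, adjusted p = 0.0158 by limma over all probe sets) or 2.24-fold. The brighter probe set, 205767_at, read 11.70, 11.66 and 11.91 against 12.10, 12.29 and 12.22. It was also lower on every DLD-1Δα-Cat array, with means of 11.76 ± 0.137 and 12.21 ± 0.10 (SD, n = 3 each). Its difference was -0.45 (SE 0.112, 95% interval -0.71 to -0.19) or 1.36-fold, with adjusted p = 0.0659 by limma over genes and 0.117 over probe sets, past the threshold in neither. It would be called under 3 of 15 other settings of the fit over genes, among them the mean of both probe sets (-0.81, adjusted p = 0.00720 by limma).

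The call on 1569583_at was lost without replicate 2 of DLD-1Δα-Cat (adjusted p = 0.0710 by limma), without its replicate 3 (0.0706) and without replicate 3 of DLD-1α-Cat (0.0741), while the difference stayed between -1.29 and -1.01 over the 6 runs that left out an array. The β-actin ratio differed between the subclones in parallel. With that ratio as a covariate, chosen after seeing the data, the difference was -1.28 with an adjusted p of 0.372 by limma over probe sets. Calls over all probe sets fell from 940 higher and 398 lower to 47 higher and 12 lower. Over all genes they fell from 760 higher and 331 lower to 58 higher and 26 lower with the same covariate. The part of RNA quality in the EREG difference was not tested beyond that fit.

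**Figure D3:**
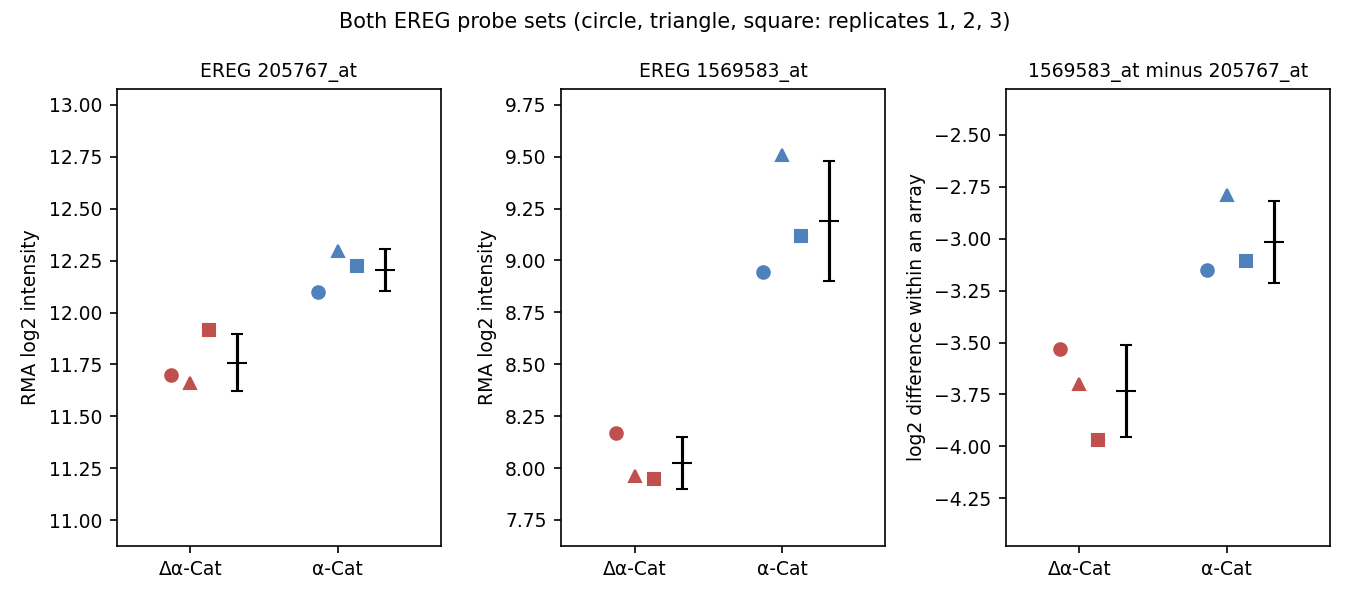
RMA log2 intensity of the bright EREG probe set 205767_at and of 1569583_at by subclone, and their difference within each array (right panel). Symbols are arrays, and bars the mean ± SD of 3; the subclones are separated in each panel, and the difference within an array runs from -3.97 to -3.53 in DLD-1Δα-Cat, and from -3.15 to -2.79 in DLD-1α-Cat.

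Both EREG probe sets pointed the same way but by unequal amounts. Within an array, 1569583_at minus 205767_at was -3.73 ± 0.220 in DLD-1Δα-Cat against -3.02 ± 0.199 in DLD-1α-Cat (SD, n = 3 each), which differ by -0.72. The exact two-sided permutation test gave p = 0.1, the smallest that 3 against 3 arrays allow. The annotation lists the RefSeq transcript NM_001432 as the source of the brighter set and the cDNA clone BC035806 as that of the other. Which part of the gene each covers was not analysed here.

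BTC, a ligand of EGFR and ERBB4, leaned the other way. Its brighter probe set, 241412_at, read 9.63, 9.68 and 9.73 in DLD-1Δα-Cat against 9.26, 9.48 and 9.14 in DLD-1α-Cat. The groups did not overlap, and the SD was 0.0480 in DLD-1Δα-Cat against 0.175 in DLD-1α-Cat. The difference was 0.39 (SE 0.115, 95% interval 0.12 to 0.65, adjusted p = 0.107 by limma over genes), which did not pass. The other BTC probe set, 207326_at, stood at 0.27 (adjusted p = 0.393 by limma over probe sets), and its arrays overlapped.

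TGFA, a ligand of EGFR alone, gave the narrowest spread of the 8 genes in DLD-1α-Cat. On 205016_at it read 11.94, 12.04 and 12.08 in DLD-1Δα-Cat against 11.85, 11.84 and 11.78 in DLD-1α-Cat. All DLD-1Δα-Cat arrays were higher, by a mean difference of 0.19 (SE 0.0921, 95% interval -0.021 to 0.41, adjusted p = 0.287 by limma), or 1.14-fold. The probe set 205015_s_at stood at 0.24 and 211258_s_at at -0.016, and neither passed.

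HBEGF, a ligand of EGFR and ERBB4 that binds heparan sulfate, was measured by a pair of bright probe sets with like values. On 38037_at it read 8.92, 9.21 and 9.24 in DLD-1Δα-Cat against 8.54, 8.64 and 9.08 in DLD-1α-Cat, where replicate 3 overlapped with the other subclone. The difference was 0.37 (SE 0.166, 95% interval -0.017 to 0.76, adjusted p = 0.262 by limma), and on 203821_at 0.34. The 2 dim HBEGF probe sets, 222076_at and 244857_at, stood at -0.25 and -0.23. None of the 4 passed.

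Same-numbered arrays differed in 1 direction in all 3 pairs for 7 of the 8 members, ERBB3 being the exception, against 51.2% of all genes. By the brightest probe set, EGFR, HBEGF, TGFA and BTC were higher in DLD-1Δα-Cat in 3 of 3 pairs, and EREG, ERBB2 and ERBB4 lower. The other EGFR probe sets that were not dim did not share its positive difference, and ERBB4 was dim throughout. For EGFR the pairs differed by 0.33, 0.45 and 0.15, and for HBEGF by 0.39, 0.57 and 0.16. With the replicate number as a block, 0 members passed in limma's fit over genes, against 1012 higher and 449 lower of all 19775 genes. In that fit adjusted p by limma was 0.0699 for EREG, 0.107 for BTC, 0.117 for HBEGF and 0.130 for EGFR. EREG 1569583_at passed with the block (adjusted p = 0.0447 by limma over probe sets).

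Around the set, 6 lists of pathway genes were read in the fit over genes. The other ligands were EGF, the founding ligand, and the neuregulins NRG1 to NRG4. Of these 5, 0 passed by limma and 1 at an unadjusted p of 0.05, against 5.52% and 20.8% of all genes. None of the 5 lay above the median of all genes. Of 17 genes that shed or mature the ligands, 0 passed by limma and 3 at an unadjusted p of 0.05, against 5.52% and 20.8% of all genes. Their median difference was 0.066. The main sheddases of the ligands, ADAM17 and ADAM10, stood at 0.060 and 0.086 (adjusted p = 0.744 and 0.641 by limma). Among members above the median level of all genes, the largest difference was that of the disintegrin protease ADAM15, at -0.37 (adjusted p = 0.162 by limma).

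Receptor-proximal signalling held 1 higher and 1 lower gene among 21 measured (9.52%, against 5.52% of all genes). VAV2, a signalling protein that binds activated EGFR, rose. It read 8.14, 8.43 and 8.38 in DLD-1Δα-Cat against 7.52, 7.70 and 7.73 in DLD-1α-Cat, giving a difference of 0.67 (SE 0.119, adjusted p = 0.0220 by limma). GAB2, a docking adaptor of receptor kinases, fell, from 8.97, 9.10 and 9.31 in DLD-1α-Cat to 8.32, 8.61 and 8.58, by 0.62 on the log2 scale (SE 0.131, adjusted p = 0.0399 by limma). The 2 dim probe sets of VAV2 stood at 0.022 and -0.28 and did not pass, and with the mean of its probe sets VAV2 was at 0.14 (adjusted p = 0.571 by limma). GAB2 has a single probe set, which did not pass in the fit over all probe sets (adjusted p = 0.0699 by limma). In the RAS-ERK and AKT core 0 of 12 measured genes passed by limma and 1 at an unadjusted p of 0.05, against 5.52% and 20.8% of all genes. The kinase PDPK1, which activates AKT, stood at 0.29 (adjusted p = 0.407 by limma). Its further probe sets lay between -0.24 and 0.20 and did not pass. With the mean of its probe sets PDPK1 was at -0.019 (adjusted p = 0.943 by limma).

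Of 33 measured genes that restrain the receptors or govern their turnover, 2 rose and 0 fell (6.06%), a share near the 5.52% of all genes. PTPRK, a receptor tyrosine phosphatase that acts on EGFR, read 13.69, 13.96 and 13.88 in DLD-1Δα-Cat against 13.01, 13.26 and 13.25 in DLD-1α-Cat. Its difference was 0.67 (SE 0.121, adjusted p = 0.0231 by limma), and its dim second probe set stood at 0.85 without passing. LRIG2, of the LRIG family of transmembrane regulators of ERBB receptors, read 10.92, 11.01 and 11.14 against 10.28, 10.60 and 10.35, a difference of 0.61 (SE 0.120, adjusted p = 0.0315 by limma). Its 3 further probe sets lay between -0.17 and 0.31 and did not pass, and their mean with the first was at 0.20 (adjusted p = 0.372 by limma). In the fit over all probe sets the first did not pass (adjusted p = 0.0577 by limma). The median of the list was 0.042.

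The output of the ERK cascade gave 0 higher and 2 lower genes of 22 (9.09%, against 5.52% of all genes), with a median of -0.12. ETV1, an ETS transcription factor, fell from 8.97, 9.18 and 8.95 in DLD-1α-Cat to 8.50, 8.31 and 8.34, by 0.65 on the log2 scale (SE 0.110, adjusted p = 0.0187 by limma). Its 4 further probe sets lay between -0.52 and 0.11 and did not pass, and with the mean of all 5 ETV1 was at -0.36 (adjusted p = 0.0870 by limma). IER3, an immediate early gene, fell from 13.59, 13.54 and 13.62 to 13.16, 13.04 and 13.09, by 0.49 (SE 0.0904, adjusted p = 0.0255 by limma), but did not pass in the fit over all probe sets (adjusted p = 0.0543 by limma). FOSL1, an AP-1 subunit, stood at -1.13 (SE 0.271, adjusted p = 0.0593 by limma) and the ERK phosphatase DUSP4 at 0.64 (SE 0.149, adjusted p = 0.0552 by limma). Both were named after their values had been seen, neither passed, and they lay on opposite sides of 0 with no overlap between the subclones. In the 6 runs that left out an array, VAV2, PTPRK and ETV1 passed in 3 and GAB2, LRIG2 and IER3 in 1. All 6 calls were lost without moderation of the variances (adjusted p from 0.0501 to 0.150 by limma) and with the β-actin ratio as a covariate (from 0.293 to 0.625).

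**Figure D4:**
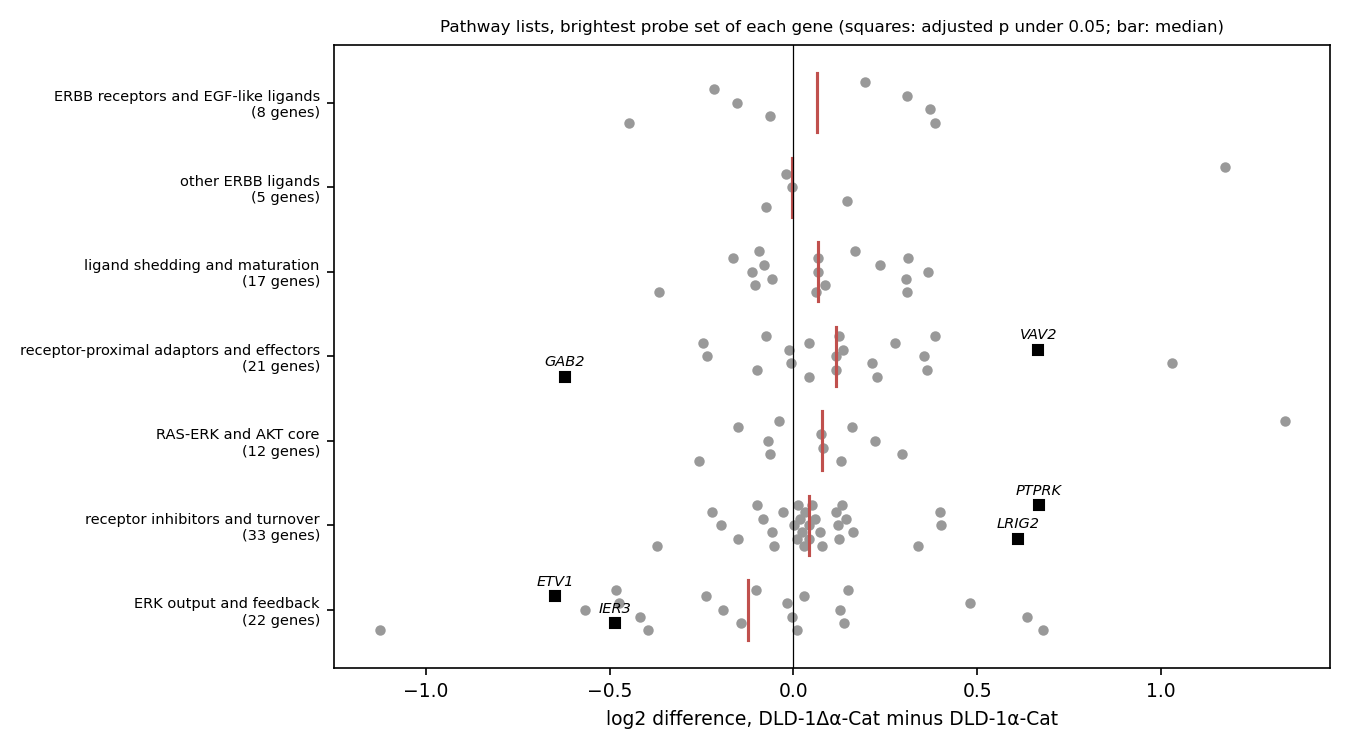
Log2 difference (horizontal axis) of each measured gene of the set and of the 6 pathway lists, by the brightest probe set. Black squares with names passed the test, grey circles did not, and red bars are list medians, which lie between -0.12 and 0.12.

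The genes whose level over the 6 arrays was most like that of EREG 205767_at were DBF4B, NTNG2, STEAP4, CA10 and ATP6V1C2, with Pearson correlations of 0.992, 0.992, 0.991, 0.990 and 0.988. These were the top 5 of all tested genes outside the set. The 6 arrays fall into 2 subclones, so any gene that separates them in this direction correlates highly. Of the 5, STEAP4 passed the test (-0.81, adjusted p = 0.0231 by limma). With single arrays omitted it passed 2 times out of 6, and it did not pass without moderation (adjusted p = 0.138 by limma) or with the β-actin covariate (0.522).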

How the data were processed

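The table holds log2 intensities deposited by the authors. Per the submitters' processing notes they used RMA and Affymetrix Expression Console, with no version stated. Because RMA equalizes the distribution of the arrays before probes are summarized into probe sets, a shift common to all RNA is removed. The array medians of the deposited values still ran from 6.12 to 6.15. Arrays correlated at 0.982 to 0.995. The 62 control probe sets took no part in the tests. An annotation dated 2016 named 1 gene for 41091 of the 54613 remaining probe sets, more than 1 gene for 1801 and left 11721 unnamed here. A gene took the values of its brightest probe set (19775 genes), and a further fit used each probe set by itself.

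Sample titles supplied groups and replicate numbers. The test was limma (version 3.58.1, R version 4.3.3; lmFit, eBayes, two-sided, no covariate), adjusted by Benjamini-Hochberg over all genes or all probe sets, with a threshold of 0.05; the code was tested on simulated data. Members and lists were chosen with earlier results of these data known. Every member is named. Of each list the text names genes past the threshold or, if there were none, the most different gene above the median level. Further names complete a count or are said to be chosen after seeing values. Outside this rule, ADAM17 and ADAM10 are named as the main sheddases, and EPCAM and KRT18 as examples of markers above the median.

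Arrays with the same number deviated together from their group means (r = 0.225, 0.376 and 0.122 over genes, each above 0.1, and each array was most like its own number). This pairing comes from the data and is not stated in the labels; it was used as a block in an alternative fit. Further settings tried were another quantile normalization, centring by the middle values, a filter on dim probe sets, gene means over probe sets, eBayes with trend and robust options, unmoderated variances, array weights, each array left out and, added after seeing the data, the β-actin ratio as a covariate. Upstream sequences are from RefSeq (GRCh38.p14), which had an entry for 9 of the 10 genes in the table used.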

Additional observations from a re-analysis of the deposited data

How the results depend on the processing

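No member passed the fit over genes as reported. The count of higher members was 1 with array weights (BTC at 0.44, adjusted p = 0.0499 by limma), and that of lower members was 1 (EREG) without dim probe sets (adjusted p = 0.0421), with gene means over probe sets (0.00720) and with the trend and robust options (0.0157). Lower member probe sets numbered 2 with the trend and robust options, 0 without moderation, 0 with the β-actin ratio as a covariate, and 0 to 1 over the runs that left out an array. The replicate block changed no call on a member; with it EREG 1569583_at had an adjusted p of 0.0447 by limma. Signs turned only in differences that did not pass. With gene means over probe sets EGFR stood at -0.0058 and PDPK1 at -0.019. With array weights ERBB4 206794_at stood at -0.017, ERBB4 214053_at at 0.0026 and ERBB3 215638_at at 0.085. With the β-actin covariate EGFR 210984_x_at stood at 0.0025, EGFR 211550_at at 0.0096, ERBB3 1563253_s_at at 0.017, ERBB4 233498_at at 0.071, ERBB2 234354_x_at at 0.17 and TGFA 211258_s_at at 0.40. Over the runs that left out an array, ERBB3 (226213_at) ranged from -0.14 to 0.085 and 215638_at from -0.26 to 0.12. EGFR 201983_s_at ranged from -0.34 to 0.013, 201984_s_at from -0.18 to 0.044, 210984_x_at from -0.089 to 0.056, 211550_at from -0.41 to 0.025 and 211607_x_at from -0.12 to 0.088. ERBB4 206794_at ranged from -0.062 to 0.15, 214053_at from -0.10 to 0.056 and 233498_at from -0.088 to 0.023. ERBB2 210930_s_at ranged from -0.28 to 0.11 and 234354_x_at from -0.50 to 0.047, TGFA 211258_s_at from -0.24 to 0.13 and HBEGF 244857_at from -0.42 to 0.00022. The cause of these changes was not tested. No detection calls were used, so the signal over background of the dim probe sets is unknown.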

Other observations

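Besides FOSL1, described above at -1.13, the uncalled genes of the pathway lists with a difference beyond 1 on the log2 scale in either direction were NRG2, KSR1 and VAV3, singled out after their values had been seen. Each is given by its brightest probe set only, of 3 for NRG2, 4 for KSR1 and 3 for VAV3. NRG2, a neuregulin, read 5.45, 7.08 and 5.54 in DLD-1Δα-Cat against 4.92, 4.62 and 5.01 in DLD-1α-Cat. Its difference was 1.17 (adjusted p = 0.158 by limma), with replicate 2 of DLD-1Δα-Cat far above the rest. This probe set was dim by its mean over the 6 arrays, although the value of 7.08 lay above the median of 6.12 that defines dim. Without detection calls its signal over background is unknown. KSR1, a scaffold of the ERK cascade, read 8.23, 8.35 and 8.12 in DLD-1Δα-Cat against 5.86, 7.42 and 7.42 in DLD-1α-Cat, giving a difference of 1.34 (adjusted p = 0.106 by limma) with replicate 1 of DLD-1α-Cat lowest. VAV3, a relative of VAV2, read 7.90, 7.50 and 6.95 against 6.59, 6.63 and 6.03, a difference of 1.03 without overlap of the subclones (adjusted p = 0.0704 by limma).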
